A study of Mus musculus with 25 samples.

Results

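Growing myoblasts that lack p53 were compared with wild-type (WT) myoblasts across every non-control probe set of the Affymetrix mouse chips U74Av2 and U74Cv2. The comparison rests on 12 of the 25 arrays of the series, 6 from p53-/- cells and 6 from WT cells: 3 RNA samples per genotype, lettered A, B and C, each hybridised to both chip types. Both chips together held 24290 non-control probe sets. The other arrays were 6 of MyoD-/- myoblasts on these chip types, which share the estimate of the spread and serve as a second comparison, 6 of WT and MyoD-/- cells on U74Bv2, and the lone p53-/- array on U74Bv2, which was left out. The series asked which genes downstream of p53 and MyoD are affected in myoblasts grown from muscle satellite cells. The p53-/- cells carried p53 -/- as their only named genotype, and the WT cells were labelled wild type. The sources used here name no allele, strain or age of the mice, and they do not tie the letters to mice or cultures, so a p-value reflects the spread of these samples alone, of which the technical part is unknown. Xist and a Y-linked gene differed widely between letters of each genotype. Cultures of all genotypes were kept growing on collagen, in a Ham's medium that held bFGF at 4 ng/ml and 20% fetal calf serum, after purification by preplating and serial passage, and purity was given as above 98% in both genotypes. Per the labels, purity was judged by Myf5 and c-met in p53-/- cells and by desmin, Myf5 and MyoD in WT cells. The RNA preparation is given as "Trizol x2" for p53-/- cells and as TriZol for WT cells, so this step and the genotype cannot be told apart.

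The tumour suppressor p53 is a transcription factor that is held at a low level by its own target Mdm2 and is stabilised by DNA damage and other stress. It switches on genes of cell cycle arrest, cell death, DNA repair and metabolism, and it lowers many genes of mitosis indirectly, in large part through its target Cdkn1a (p21) and the repressor complex DREAM. In the muscle lineage, cell cycle exit, for which Cdkn1a is one of the brakes, goes together with the start of the contractile programme.

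Array quality differed in part with genotype, and p53-/- C stood out. Median signals ran from 455.3 to 550.0 in p53-/- samples and from 506.3 to 563.5 in WT samples, with the lowest of each chip type in p53-/- C. The ratio of 3' to 5' Gapdh signal was highest in p53-/- C (0.879 and 0.946). Its ratios for actin (1.148 on U74Av2 and 1.162 on U74Cv2) were close to those of p53-/- A on U74Av2 (1.142) and WT A on U74Cv2 (1.156). On U74Cv2 all p53-/- medians (455.3 to 499.6) lay below all WT medians (506.3 to 534.8), and all p53-/- Gapdh ratios (0.781 to 0.946) lay above all WT ratios (0.719 to 0.766), whereas on U74Av2 both overlapped. The part of RNA quality in the results was not tested. On U74Av2, arrays of the same genotype correlated at 0.9551 to 0.9676 and arrays of different genotypes at 0.8955 to 0.9206 (Pearson's r of log2 signals over probe sets, genes not being independent replicates). On U74Cv2 the values were 0.9089 to 0.928 and 0.884 to 0.8961. No probe set was annotated to Trp53, the targeted gene, alone, and it was not analysed here, so the labels could not be checked against it. The genes taken to define myoblasts were Myod1, Cdh15, Des and Myf5. Myod1 read 23450, 24450 and 18500 in p53-/- A, B and C, against 37440, 40170 and 45190 in WT A, B and C, and the myoblast cadherin Cdh15 read 1635, 2018 and 1383 in p53-/- A, B and C, against 5012, 4044 and 3091 in WT A, B and C. Both stood well above the dim end of the arrays in all 6 samples, and both were lower in p53-/- cells without overlap. Des was lower too, at 839 to 1726 in p53-/- samples against 3551 to 3897 in WT samples. Myf5 went the other way, at 4216 to 6009 in p53-/- samples against 165 to 1041 in WT samples. The lowest Myf5 signal, in WT A, lay below the median signal of that array (561.9).

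Of 15767 probe sets tested, 755 (4.79%) were higher and 843 (5.35%) were lower in p53-/- cells at an adjusted p under 0.05 (limma with Benjamini-Hochberg adjustment). Together these were 10.1% of the probe sets. The lower calls were the larger changes: 485 were at least 2-fold lower against 247 at least 2-fold higher, and 35 were at least 8-fold lower against 6 at least 8-fold higher. U74Av2 gave 558 higher and 626 lower calls, or 15% of its tested probe sets, and U74Cv2 gave 197 and 217, or 5.25%. Taken by gene, 546 of 9013 genes (6.06%) were higher and 588 (6.52%) were lower. The counts depended on single samples: without p53-/- A 377 probe sets were higher and 541 lower, without p53-/- C 414 were higher, without WT A 414 were higher and 489 lower, and without WT B 422 were higher and 558 lower. Fold changes are log2 differences of signal plus an offset, p53-/- minus WT, and they understate changes of dim genes.

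Genes that p53 is known to switch on were lower in p53-/- cells as a group. Of 88 genes in the list, 57 passed the filter on dim signals, 9 were on the chips but did not pass it, and 22 lacked a probe set annotated to them alone. Among the 57, limma called 24 lower and 0 higher (42.1% lower, beside 6.52% of all genes; at an unadjusted p under 0.05, 28 were lower and 1 higher), with a median log2 fold change of -0.51 beside -0.01 over all genes tested. All 3 p53-/- signals lay below all 3 WT signals for 30 of them (52.6%, beside 16.9% of all genes). Targets of cell cycle arrest changed most often, with 7 of 10 lower. The counts were 2 of 4 for genes listed as feedback regulators of p53 and 3 of 9 for cell death genes. They were 2 of 6 for DNA repair, 2 of 11 for metabolism and redox control, and 8 of 17 for others. Whether these shares differ from one another was not tested.

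Among the arrest genes, Ccng1, cyclin G1, had the smallest adjusted p. Ccng1 read 751, 780.4 and 676 in p53-/- A, B and C, against 7658, 6767 and 5061 in WT A, B and C (log2 fold change -3.01 ± 0.16, SE, adjusted p = 1.04e-05). Cdkn1a, the inhibitor of cyclin-dependent kinases that carries out much of the p53 arrest, read 966, 1887 and 1194 in p53-/- A, B and C, against 6852, 6502 and 8124 in WT A, B and C (log2 fold change -2.40 ± 0.25, SE, adjusted p = 0.000792). In both genes every p53-/- sample was below every WT sample by a wide margin, and a further probe set of Cdkn1a was also called lower (log2 -1.56, adjusted p = 0.000653). Zmat3, a zinc finger RNA-binding protein, read 973, 1335 and 1689 in p53-/- A, B and C, against 5405, 4732 and 5601 in WT A, B and C (log2 fold change -1.95 ± 0.18, SE, adjusted p = 0.00038). Another, dimmer probe set of Zmat3 was not called (log2 -0.30, adjusted p = 0.636). Phlda3, which restrains Akt, fell by 1.94 on the log2 scale. Gadd45a, a growth arrest and DNA damage gene (log2 -2.03), the antiproliferative gene Btg2 (-1.42) and the kinase Plk2 (-1.04) fell too. The 3 p53-/- signals of Gadd45a were nearly equal, at 2439, 2547 and 2488, whereas WT samples spread over 15170, 12140 and 6037. The call of Plk2 was lost without p53-/- C (adjusted p = 0.0831), without p53-/- B and without WT A.

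Mdm2, the ubiquitin ligase that degrades p53, read 9018, 9969 and 10710 in p53-/- A, B and C, against 44340, 29400 and 54130 in WT A, B and C (log2 fold change -2.05 ± 0.24, SE, adjusted p = 0.00109). Its 3 p53-/- samples were close together and its WT samples, though more spread, were all far above them. A second probe set, on the other chip type, was called lower as well (log2 -1.99, adjusted p = 0.00086). Trp53inp2, p53-inducible by name only, was the other call among the genes listed under feedback, at log2 -1.01. Whether p53 induces Trp53inp2, or Trp53inp2 feeds back on p53, was not tested. Mdm4, the partner of Mdm2, was not called (log2 -0.51, 95% interval ± 0.43, adjusted p = 0.13).

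Cell death targets changed less. Apaf1, the core of the apoptosome, read 801, 764 and 755 in p53-/- A, B and C, against 1269, 1192 and 1562 in WT A, B and C (log2 fold change -0.74 ± 0.16, SE, adjusted p = 0.0144), and its call was lost without WT C (adjusted p = 0.0502). Pidd1, a death domain protein gene on chromosome 7, fell by 0.88 on the log2 scale, and Ei24, an etoposide-induced gene, fell by 0.72. Bbc3 (Puma), a BH3-only activator of apoptosis, was not called (log2 -0.21, 95% interval ± 0.55), nor were Bid (0.03 ± 0.29) and Casp6 (-0.12 ± 0.45). Fas and Perp did not pass the filter, and Bax lacked a probe set of its own. Among repair genes the endonuclease Ercc5 read 495, 521 and 531 in p53-/- A, B and C, against 1177, 1206 and 1845 in WT A, B and C (log2 fold change -1.31 ± 0.18, SE, adjusted p = 0.0022), without overlap, and Mgmt, on chromosome 7, fell by 0.84, a call lost without WT C (adjusted p = 0.0614), without WT A and without p53-/- A. Rrm2b, the p53-inducible ribonucleotide reductase subunit, was not called (log2 0.001, 95% interval ± 0.59), and neither was Xpc (-0.36 ± 0.40).

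In metabolism, Sesn2, a sestrin that restrains mTORC1, fell by 1.11 on the log2 scale, while its relative Sesn1 was not called (log2 0.46, 95% interval ± 0.64, adjusted p = 0.365). Lpin1, a phosphatidate phosphatase, was called at log2 -1.72, but its call was lost when any 1 of the 6 samples was left out (adjusted p up to 0.137, without WT C). The remaining targets held some of the largest changes. Ak1, adenylate kinase, read 1190, 1348 and 1139 in p53-/- A, B and C, against 7508, 7040 and 8036 in WT A, B and C (log2 fold change -2.56 ± 0.16, SE, adjusted p = 2.87e-05), and the spread within each genotype was small. Ptp4a3, a phosphatase of the PRL family, read 443, 705 and 495 in p53-/- A, B and C, against 3568, 2725 and 5476 in WT A, B and C (log2 fold change -2.66 ± 0.36, SE, adjusted p = 0.00191), and the thiamine transporter Slc19a2 read 5753, 3946 and 6385 in p53-/- A, B and C, against 16320, 22150 and 25600 in WT A, B and C (log2 fold change -1.98 ± 0.22, SE, adjusted p = 0.000927). All p53-/- samples of both genes were below all WT samples. The lysosomal protease Ctsd, on chromosome 7 (log2 -1.15), the transcription factor Klf4 (-1.75), the receptor Notch1 (-2.15), Igfbp3, a binding protein of insulin-like growth factors (-2.47), and the peptide transporter Tap1 (-1.76) fell as well. Not counting the 7 tested targets on chromosome 7, for a reason given with the chromosomes, 21 of 50 were lower (42%, beside 5.18% of all genes outside chromosomes 7 and 14).

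**Figure D1:**
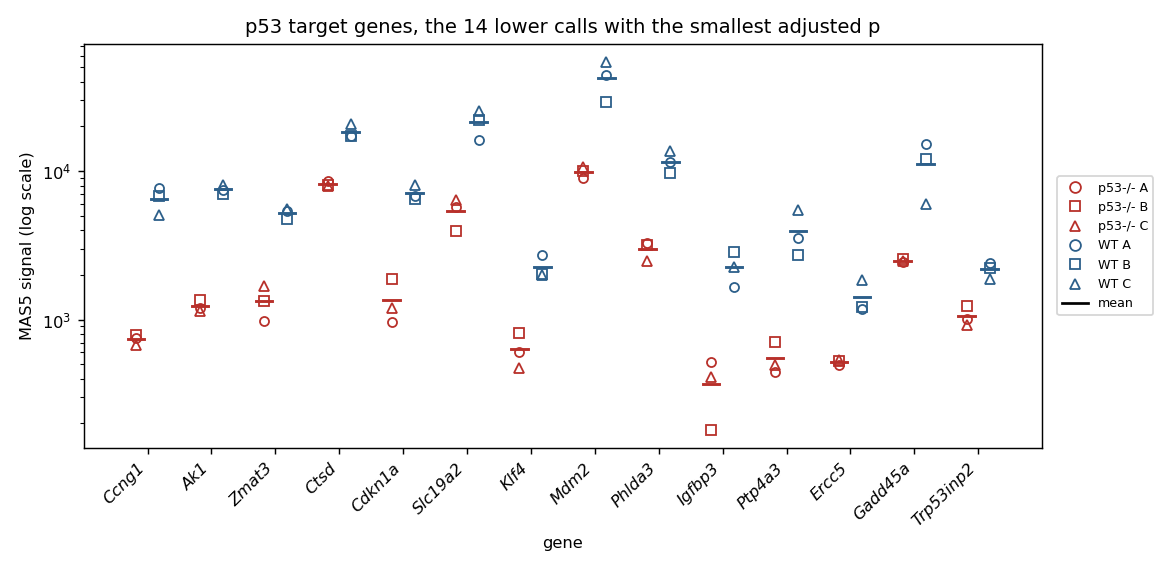
MAS5 signal on a log axis for the 14 p53 target genes that were called lower with the smallest adjusted p, in p53-/- samples A, B and C (red, left of each tick) and WT samples A, B and C (blue, right), with the mean as a bar. Only genes whose groups did not overlap were eligible, so all p53-/- points lie below all WT points of a gene by this choice. The probe sets of different genes are not on a common scale.

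Against MyoD-/- cells, 1068 probe sets were higher (6.77%) and 977 were lower (6.2%) in p53-/- cells. The MyoD-/- myoblasts thus gave a test of whether these targets were low in p53-/- cells against another knockout, in a contrast where WT arrays enter only through the shared spread. Of the 57 targets, 21 were lower and 4 were higher in p53-/- than in MyoD-/- cells (36.8% and 7.02%, beside 7.66% and 8.44% of all genes). Ccng1 averaged 736 ± 54.1 in p53-/- cells and 4021 ± 375 in MyoD-/- cells (SD, n = 3 each; log2 -2.35, limma adjusted p = 1.94e-05), and Ak1 and Ptp4a3 were also lower (log2 -2.73 and -2.83). Gadd45a went the other way, being higher in p53-/- than in MyoD-/- cells (log2 1.30, adjusted p = 0.0157), as was Igfbp3 (log2 1.29, adjusted p = 0.0248).

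The promoter sequences of the 4 called targets with the smallest adjusted p that held a p53 half-site are shown because these genes are lower in p53-/- cells and hold the motif near their start. Sequences are from RefSeq, build GRCm38.p6, 250 bases before to 50 bases after the start of a transcript, and capitals mark each match to the p53 half-site, a 10-base pattern that reads alike on both strands. The Ccng1 promoter lies at chr11:40755237-40755536 on the minus strand, that of Cdkn1a at chr17:29090729-29091028 on the plus strand, that of Mdm2 at chr10:117710709-117711008 on the minus strand and that of Gadd45a at chr6:67037358-67037657 on the minus strand.
Ccng1: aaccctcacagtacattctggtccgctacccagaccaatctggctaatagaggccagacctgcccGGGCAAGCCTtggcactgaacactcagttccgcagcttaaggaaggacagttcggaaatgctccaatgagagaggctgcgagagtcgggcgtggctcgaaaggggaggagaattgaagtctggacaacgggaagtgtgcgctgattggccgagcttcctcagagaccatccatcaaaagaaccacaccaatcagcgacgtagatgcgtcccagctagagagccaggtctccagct
Cdkn1a: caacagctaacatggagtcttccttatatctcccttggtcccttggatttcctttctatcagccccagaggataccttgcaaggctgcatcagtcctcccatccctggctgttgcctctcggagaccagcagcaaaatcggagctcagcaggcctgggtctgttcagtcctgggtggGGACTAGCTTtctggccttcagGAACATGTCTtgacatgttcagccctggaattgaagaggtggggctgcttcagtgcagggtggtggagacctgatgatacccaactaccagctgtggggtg
Mdm2: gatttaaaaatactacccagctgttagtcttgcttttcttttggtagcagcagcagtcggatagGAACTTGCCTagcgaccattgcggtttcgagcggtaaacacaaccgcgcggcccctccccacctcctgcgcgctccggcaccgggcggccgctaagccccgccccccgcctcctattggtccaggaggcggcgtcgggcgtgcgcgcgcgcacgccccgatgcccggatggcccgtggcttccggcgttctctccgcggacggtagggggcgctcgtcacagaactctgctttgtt
Gadd45a: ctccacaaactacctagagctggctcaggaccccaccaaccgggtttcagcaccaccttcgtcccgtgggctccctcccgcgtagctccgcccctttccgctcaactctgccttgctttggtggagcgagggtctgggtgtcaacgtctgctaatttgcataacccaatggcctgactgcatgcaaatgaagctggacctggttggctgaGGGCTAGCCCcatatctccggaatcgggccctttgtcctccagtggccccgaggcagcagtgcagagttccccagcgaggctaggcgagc

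Counting back from the transcript start, the match began at base -185 in Ccng1, at -73 and -51 in Cdkn1a, at -186 in Mdm2 and at -40 in Gadd45a. Of the 24 lower targets 22 were in the promoter table, and 5 of these (22.7%) had a half-site in at least 1 promoter, against 2 of 29 targets that were not called (6.9%), 8.3% of the 7193 tested genes in the table and 9.55% of all 27025 genes in it. A match describes these letters only, and sites outside this window, which p53 often uses, were not searched.

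Genes of G2 and mitosis were higher in p53-/- cells. Of 76 in the list 60 were tested, 4 did not pass the filter and 12 lacked a probe set of their own. Among the 60, 24 were higher and 2 were lower (40% higher, beside 6.06% of all genes), with a median log2 fold change of 0.58, and all 3 p53-/- signals lay above all 3 WT signals for 42 (70%, beside 17.6% of all genes). The changes were small in fold, from 0.50 to 1.57 on the log2 scale among the higher calls. The count was smaller when a sample was left out, 13 without WT A or WT B and 15 without p53-/- A. The list's median differences of p53-/- samples A, B and C from the WT mean were 0.62, 0.53 and 0.59, and those of WT samples from the mean of the other WT samples were -0.10, 0.01 and 0.10.

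Among cyclins, kinases and their regulators 9 of 16 were higher and 1 was lower. Ccnb2, cyclin B2, which drives entry into mitosis with Cdk1, read 16620, 14720 and 14310 in p53-/- A, B and C, against 8577, 9565 and 10150 in WT A, B and C (log2 fold change 0.69 ± 0.12, SE, adjusted p = 0.00609). Plk4, the kinase of centriole duplication, read 6114, 6321 and 6260 in p53-/- A, B and C, against 2466, 3189 and 2990 in WT A, B and C (log2 fold change 1.10 ± 0.16, SE, adjusted p = 0.00274). The p53-/- samples of both genes lay above the WT samples without overlap. Cdk1 read 13400, 12250 and 12190 in p53-/- A, B and C, against 7091, 6058 and 8485 in WT A, B and C (log2 fold change 0.81 ± 0.18, SE, adjusted p = 0.0184), and its call was lost without p53-/- A, p53-/- C, WT A or WT B (adjusted p 0.0527 to 0.0698). Cks1b, a Cdk1-binding subunit, rose by 0.90 on the log2 scale. Wee1, the kinase that holds Cdk1 inactive and a gene of chromosome 7, was the exception and fell by 1.16.

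At the kinetochore and centromere 4 of 11 were higher. Birc5 (survivin), a subunit of the chromosomal passenger complex, read 4901, 4348 and 5054 in p53-/- A, B and C, against 1708, 2035 and 2361 in WT A, B and C (log2 fold change 1.21 ± 0.21, SE, adjusted p = 0.00623), and the centromeric histone Cenpa read 2614, 2081 and 2492 in p53-/- A, B and C, against 1265, 1427 and 1366 in WT A, B and C (log2 fold change 0.79 ± 0.14, SE, adjusted p = 0.00688). Neither gene's groups overlapped. The checkpoint kinase Bub1 rose by 0.93 on the log2 scale, with 1 of its 2 further probe sets called higher, and was the sole call among 9 genes of the checkpoint, the anaphase-promoting complex and cohesion. Among spindle and cytokinesis genes 6 of 16 were higher and 1, Ckap2, was lower, a call lost in all 6 omissions of a sample (adjusted p up to 0.103, without p53-/- C). Ect2, the exchange factor that starts cleavage furrow formation, read 6901, 8267 and 7097 in p53-/- A, B and C, against 3725, 3848 and 3503 in WT A, B and C (log2 fold change 0.99 ± 0.15, SE, adjusted p = 0.00274), and the citron kinase gene Cit rose by 1.57. In chromosome condensation, Top2a, topoisomerase II alpha, read 5730, 4835 and 5181 in p53-/- A, B and C, against 2328, 2691 and 2605 in WT A, B and C (log2 fold change 1.03 ± 0.21, SE, adjusted p = 0.0117), and the condensin subunit Smc2 (log2 1.17) and the chromatin protein Hmgb2 (log2 1.14) rose too. The p53-/- samples of these genes were all above the WT samples at these probe sets. A dim second probe set of Hmgb2 overlapped between the genotypes and was not called (log2 0.86, limma adjusted p = 0.252).

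Several genes that mark cycling cells were not called. Mki67, the antigen Ki-67, read 3618, 3541 and 3373 in p53-/- A, B and C, against 4026, 3642 and 2897 in WT A, B and C (log2 0.01, 95% interval ± 0.44, adjusted p = 0.989), and the groups overlapped. Mki67 lies on chromosome 7, whose tested genes had a median log2 fold change of -0.36. The part of that shift in its value was not tested. The kinase Plk1 had log2 -0.05 (95% interval ± 0.41) and the transcription factor Foxm1 had -0.04 (± 0.31). The upper end of each of these intervals lay below the change of Ccnb2.

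**Figure D2:**
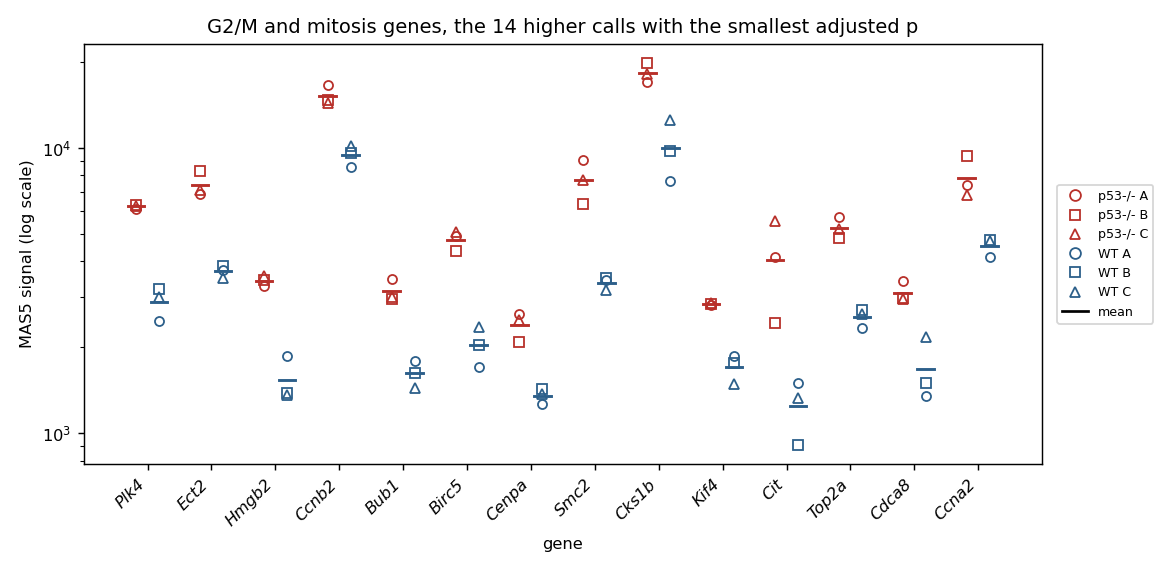
MAS5 signal on a log axis for the 14 G2/M and mitosis genes called higher with the smallest adjusted p, in p53-/- samples A, B and C (red, left of each tick) and WT samples A, B and C (blue, right), with the mean as a bar. Only genes whose groups did not overlap were eligible, so the p53-/- points of each gene lie above its WT points by this choice.

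Promoters of the 4 higher mitotic genes with the smallest adjusted p that held both a cell cycle homology region (TTTGAA), an element through which DREAM and its activating counterparts act, and a CCAAT box (CCAAT) are shown because these elements were more frequent among the mitotic genes than among all genes tested. Both motifs were searched on both strands, capitals mark each match, TTCAAA and ATTGG being the other strand, and the promoters lie at chr3:27153829-27154128 on the minus strand (Ect2), chr8:57511593-57511892 on the plus strand (Hmgb2), chr9:70421505-70421804 on the minus strand (Ccnb2) and chr5:30666636-30666935 on the plus strand (Cenpa) of build GRCm38.p6, from RefSeq.
Ect2: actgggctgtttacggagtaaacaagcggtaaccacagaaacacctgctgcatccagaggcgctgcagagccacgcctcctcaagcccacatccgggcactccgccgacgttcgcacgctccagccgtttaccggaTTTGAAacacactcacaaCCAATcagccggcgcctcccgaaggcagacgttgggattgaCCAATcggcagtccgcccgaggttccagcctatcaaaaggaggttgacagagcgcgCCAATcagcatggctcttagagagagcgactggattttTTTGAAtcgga
Hmgb2: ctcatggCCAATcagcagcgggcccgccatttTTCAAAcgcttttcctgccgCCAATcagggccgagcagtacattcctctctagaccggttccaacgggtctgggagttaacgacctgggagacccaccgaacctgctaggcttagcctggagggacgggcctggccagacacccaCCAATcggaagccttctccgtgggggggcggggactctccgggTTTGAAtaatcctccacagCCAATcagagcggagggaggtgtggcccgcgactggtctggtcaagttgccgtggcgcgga
Ccnb2: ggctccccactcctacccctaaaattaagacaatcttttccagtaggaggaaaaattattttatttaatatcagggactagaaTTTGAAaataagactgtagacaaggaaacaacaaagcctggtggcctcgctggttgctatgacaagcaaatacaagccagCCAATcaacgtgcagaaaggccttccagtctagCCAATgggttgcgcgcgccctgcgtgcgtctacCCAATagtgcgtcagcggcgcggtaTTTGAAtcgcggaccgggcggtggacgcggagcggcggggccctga
Cenpa: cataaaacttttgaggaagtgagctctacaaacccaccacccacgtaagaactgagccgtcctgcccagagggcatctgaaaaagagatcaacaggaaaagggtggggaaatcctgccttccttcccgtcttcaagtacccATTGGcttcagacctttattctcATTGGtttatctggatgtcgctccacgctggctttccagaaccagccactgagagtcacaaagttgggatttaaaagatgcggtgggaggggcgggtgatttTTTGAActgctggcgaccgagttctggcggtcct

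The TTTGAA match nearest the transcript start began at base 5 in Ccnb2, 17 in Cenpa, 40 in Ect2 and -30 in Hmgb2, counted from the first transcribed base as 1. In Ccnb2, CCAAT boxes began at -87, -54 and -21. Among the 20 higher mitotic genes that RefSeq's promoter table held, 14 had TTTGAA (70%) and 16 had CCAAT (80%) in at least 1 promoter, against 14 and 15 of 26 mitotic genes that were not called (53.8% and 57.7%). Among all tested genes in the table the shares were 14.6% and 42.7%, and among all genes in it 20.2% and 41.1%. A gene with several promoters had more chances to match.

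Some genes of the G1/S step and DNA replication were higher too. Of 53 tested, 11 were higher and 1 was lower (20.8% higher, beside 6.06%), with a median log2 fold change of 0.41. Gmnn, geminin, which blocks relicensing of origins, read 2005, 1891 and 2422 in p53-/- A, B and C, against 822, 947 and 653 in WT A, B and C (log2 fold change 1.32 ± 0.22, SE, adjusted p = 0.00514). Pold2, a subunit of DNA polymerase delta, read 8788, 7599 and 6439 in p53-/- A, B and C, against 3288, 3425 and 3856 in WT A, B and C (log2 fold change 1.09 ± 0.18, SE, adjusted p = 0.0047), and the clamp Pcna read 17900, 18260 and 18000 in p53-/- A, B and C, against 11570, 11420 and 11050 in WT A, B and C (log2 fold change 0.67 ± 0.14, SE, adjusted p = 0.0148). The groups did not overlap in these 3 genes. Rfc1, a clamp loader subunit (log2 1.28), and Orc6, of the origin recognition complex (log2 0.79), rose as well, though a dim further probe set of Rfc1 was not called (log2 0.11, adjusted p = 0.917). The count was 5 without p53-/- A, WT B or WT C, 6 without p53-/- C and 7 without WT A. It was 7 with no filter on dim probe sets and 19 with the 6 p53-/- and WT arrays of a chip type fitted alone. Promoters of 1 of 9 higher replication genes in the table held TTTGAA (11.1%), and those of 7 held CCAAT (77.8%). Pold3, on chromosome 7, was the gene called lower, a call that held only without WT C among the 6 omissions of a sample (adjusted p up to 0.12, without WT B).

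Upstream of these, the D cyclins and Myc moved apart. Ccnd2, cyclin D2, read 568, 705 and 592 in p53-/- A, B and C, against 1587, 1455 and 1520 in WT A, B and C (log2 fold change -1.21 ± 0.19, SE, adjusted p = 0.00369), and Ccnd1, cyclin D1, a chromosome 7 gene, fell by 0.75 on the log2 scale, while 2 further probe sets of it were not called (log2 -0.70 and -0.79). The growth regulator Myc read 2680, 2642 and 2951 in p53-/- A, B and C, against 1233, 1148 and 1064 in WT A, B and C (log2 fold change 1.22 ± 0.19, SE, adjusted p = 0.00331). Each of these genes separated the genotypes completely. Ccnd3 also fell (log2 -0.57), a call lost without p53-/- A, p53-/- C or WT C (adjusted p 0.053 to 0.0599). A dim second probe set of Ccnd3 was not called (log2 -0.39, limma adjusted p = 0.624). Of 5 tested inhibitors of cyclin-dependent kinases outside the p53 target list limma called 0, and 0 had an unadjusted p under 0.05. Among them Cdkn2a, the INK4a/ARF locus, read 1002, 990.3 and 739.8 in p53-/- A, B and C, against 959, 610.2 and 816 in WT A, B and C (log2 0.19, 95% interval ± 0.51, adjusted p = 0.672).

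Apoptosis regulators outside the target list gave 3 higher and 2 lower calls of 23 (13% and 8.7%, beside 6.06% and 6.52% of all genes). Mcl1, a survival protein of the Bcl2 family, rose by 0.76 on the log2 scale at its brightest probe set, and another was not called (log2 0.32, adjusted p = 0.146). The chaperone Bag3, on chromosome 7, fell by 1.29, and the death-associated kinase Dapk2 fell by 1.79. Bcl2 was not called at its brightest probe set (log2 0.21, 95% interval ± 0.44), but a dimmer probe set read 495, 484 and 392 in p53-/- A, B and C, against 103.5, 118 and 166 in WT A, B and C, and was called higher (log2 1.26, adjusted p = 0.0181). DNA repair and checkpoint genes gave 4 higher and 1 lower calls of 37 (10.8% and 2.7%, beside 6.06% and 6.52% of all genes). Whether these shares differ from those of all genes was not tested. The higher ones included Parp1 (log2 0.86) and the endonuclease Apex1 (log2 1.0), a gene of chromosome 14.

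Genes of the contractile apparatus and of terminal differentiation were lower in p53-/- cells. Of 85 in the list 56 were tested, 14 did not pass the filter and 15 lacked a probe set of their own. Among the 56, limma called 35 lower and 0 higher (62.5% lower, beside 6.52% of all genes; at an unadjusted p under 0.05, 43 were lower and 2 higher), with a median log2 fold change of -1.56. In all 35 the p53-/- signals lay below the WT signals, which was so for 42 of the 56 (75%, beside 16.9% of all genes). The count was 23 without WT A, the lowest of the 6 omissions. These were bulk cultures kept in growth medium, in which fewer differentiating cells and less of these RNAs per cell cannot be told apart.

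The thin filament genes changed most widely, with 10 of 12 lower. Acta1, skeletal alpha-actin, read 874, 3184 and 637 in p53-/- A, B and C, against 20970, 26510 and 10860 in WT A, B and C (log2 fold change -3.82 ± 0.54, SE, adjusted p = 0.00221). Tnni1, slow troponin I, read 3366, 7724 and 2418 in p53-/- A, B and C, against 23920, 29320 and 22550 in WT A, B and C (log2 fold change -2.62 ± 0.33, SE, adjusted p = 0.00142), and Tnnt3, fast troponin T, on chromosome 7, read 26.4, 319 and 10.9 in p53-/- A, B and C, against 2529, 2920 and 1586 in WT A, B and C (log2 fold change -4.05 ± 0.54, SE, adjusted p = 0.00179). In all 3 genes p53-/- B was the highest p53-/- sample and p53-/- C the lowest. Of the myosin genes 5 of 8 were lower. Myh3, embryonic myosin heavy chain, read 13.3, 150.4 and 10.6 in p53-/- A, B and C, against 1807, 3946 and 1396 in WT A, B and C (log2 fold change -4.33 ± 0.47, SE, adjusted p = 0.000801), near the dim end of the array in p53-/- A and C. The myosin light chain Myl1 fell by 2.85 on the log2 scale. Of Z disc, M band and filament genes 5 of 9 were lower, among them Myom2, myomesin 2, at log2 -3.47. Further probe sets of Myom2 were called lower at log2 -1.30 and -3.455, and another was not called (log2 0.24, limma adjusted p = 0.83). Des, desmin, read 1583, 1726 and 839 in p53-/- A, B and C, against 3897, 3560 and 3551 in WT A, B and C (log2 fold change -1.43 ± 0.33, SE, adjusted p = 0.0221), a call lost without p53-/- C, WT A, WT B or WT C (adjusted p 0.0535 to 0.0751), with no offset (0.0559) and with a floor (0.0552).

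In calcium handling 5 of 10 were lower. The release channel Ryr1 read 176, 224 and 72 in p53-/- A, B and C, against 1506, 2174 and 1568 in WT A, B and C (log2 fold change -3.06 ± 0.31, SE, adjusted p = 0.000631), and the calcium pump Atp2a1 fell by 2.15 on the log2 scale. Both are chromosome 7 genes, and their groups did not overlap. Of genes of energy supply and fusion 8 of 10 were lower. Car3, carbonic anhydrase III of muscle, read 31.7, 368 and 36.5 in p53-/- A, B and C, against 4129, 5350 and 2846 in WT A, B and C (log2 fold change -4.62 ± 0.49, SE, adjusted p = 0.000801), and Pygm, muscle glycogen phosphorylase, read 242, 264 and 26.1 in p53-/- A, B and C, against 3180, 2220 and 2480 in WT A, B and C (log2 fold change -3.65 ± 0.41, SE, adjusted p = 0.000942), with 1 p53-/- sample, C, far below the other two. The muscle phosphoglycerate mutase Pgam2 fell (log2 -3.25), and so did the fusion peptide Mymx (log2 -2.92), a call lost without WT B (adjusted p = 0.0833) or WT A. At the synapse 2 of 7 were lower, Chrng, the fetal acetylcholine receptor subunit, at log2 -2.53, and Musk, the receptor kinase of the synapse, at log2 -1.66, a call that held only without p53-/- B among the 6 omissions of a sample. Ckm, muscle creatine kinase, which is on the target list too, was not called (log2 -0.31, 95% interval ± 0.60).

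The samples of each genotype did not hold these RNAs evenly. The list's median differences of p53-/- A, B and C from the WT mean were -1.48, -1.0 and -1.94, and those of WT A, B and C from the mean of the remaining WT samples were 0.02, 0.32 and -0.30. Among the 35 lower genes p53-/- B was the highest p53-/- sample in 31 and p53-/- C the lowest in 29, while WT B was the highest WT sample in 27 and WT C the lowest in 30. The p53-/- sample with the highest 3' to 5' Gapdh ratio, p53-/- C, was thus the one with the least contractile RNA. The WT samples did not share this order. WT C had the least contractile RNA and the lowest WT Gapdh ratio on U74Av2 (0.804, beside 0.844 in A and 0.852 in B). On U74Cv2 its ratio (0.743) lay between those of B (0.719) and A (0.766). The part of RNA quality in these differences was not tested. The fall was shared with the other knockout. Both contrasts subtract the same WT samples, so this is not an independent second observation. In MyoD-/- against WT cells 38 of the 56 genes were called lower and 1 higher, beside 577 and 528 of all 9013 genes. The list's median differences of MyoD-/- A, B and C from the WT mean were -2.08, -1.77 and -1.80. Against MyoD-/- cells, 11 of the 56 genes were higher and 2 were lower in p53-/- cells (19.6% and 3.57%, beside 8.44% and 7.66% of all genes). Tnnc1, slow troponin C, for example, was higher in p53-/- than in MyoD-/- cells (log2 1.93, adjusted p = 0.0203), and Cryab, a small heat shock protein, was lower (log2 -2.60, adjusted p = 0.00045).

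**Figure D3:**
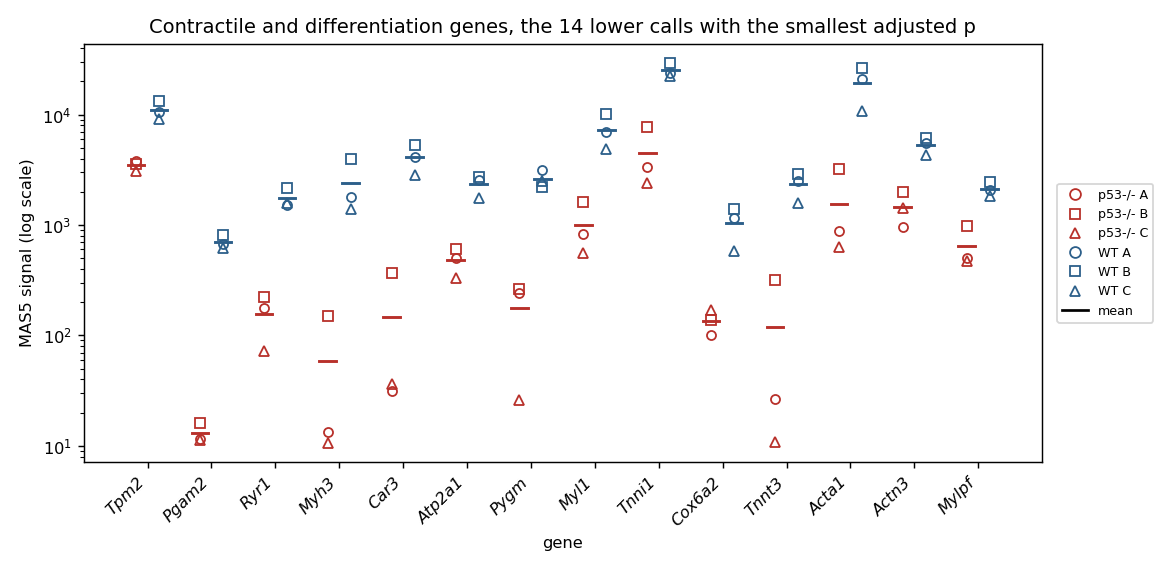
MAS5 signal on a log axis for the 14 contractile and differentiation genes called lower with the smallest adjusted p, in p53-/- samples A, B and C (red, left of each tick) and WT samples A, B and C (blue, right), with the mean as a bar. Only genes whose groups did not overlap were eligible, which held for all 35 lower calls of this list. All p53-/- points of a gene thus lie below all its WT points, and p53-/- B (square) is the highest p53-/- sample in most genes.

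The regulators of this programme changed in part. Myf5, the earlier of the myogenic factors, read 6009, 5032 and 4216 in p53-/- A, B and C, against 165, 1041 and 973 in WT A, B and C (log2 fold change 2.98 ± 0.50, SE, adjusted p = 0.00485), the sole regulator of 28 that was higher. Myod1 fell by 0.89 on the log2 scale (adjusted p = 0.00445). Myog, myogenin, which drives terminal differentiation, read 2612, 2746 and 254 in p53-/- A, B and C, against 7278, 6891 and 3772 in WT A, B and C, without overlap, yet was not called (log2 -2.11, 95% interval ± 1.5, adjusted p = 0.0762), and p53-/- C stood far below the other p53-/- samples. Leaving out p53-/- B made it a call (log2 -2.65, adjusted p = 0.0499). Mef2a, a MADS box factor that works with the myogenic factors, read 2205, 2956 and 2296 in p53-/- A, B and C, against 8468, 8008 and 6551 in WT A, B and C (log2 fold change -1.60 ± 0.19, SE, adjusted p = 0.00107), and Hes6, which promotes myogenic differentiation (log2 -1.10), and the methyltransferase Smyd1 (log2 -2.04) fell too. Myod1 and Mef2a lie on chromosome 7. In total 1 regulator was higher and 4 were lower (3.57% and 14.3%, beside 6.06% and 6.52%).

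Surface markers of satellite cells gave 3 lower and 0 higher limma calls of 15 (20% lower, beside 6.52% of all genes, with 5 lower and 2 higher at an unadjusted p under 0.05): Cdh15 (log2 -1.23), Ncam1, a neural cell adhesion molecule of myoblasts (log2 -0.89), and the chemokine receptor Cxcr4 (log2 -1.37). A dim second probe set of Ncam1 was not called (log2 -0.52, limma adjusted p = 0.561). Summed over the 19 measured markers, signals were 68802 to 71846 in p53-/- samples and 73180 to 90886 in WT samples. Met, the c-met receptor used to judge the purity of p53-/- cells, was not called (log2 0.08, 95% interval ± 0.48).

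Genes shared with smooth muscle were lower too. Of 10 tested, 6 were lower, beside 6.52% of all genes, 2 of them, Des and Tpm2, being members of the contractile list as well. Acta2, smooth muscle alpha-actin, read 1808, 2535 and 1797 in p53-/- A, B and C, against 17640, 8524 and 4087 in WT A, B and C (log2 fold change -2.04 ± 0.42, SE, adjusted p = 0.0131), without overlap, but its call was lost without p53-/- C (adjusted p = 0.0521), and a dim second probe set was not called (log2 -0.10, adjusted p = 0.933). Rgs5, a regulator of G protein signalling in pericytes, read 645, 386 and 557 in p53-/- A, B and C, against 2183, 1305 and 2444 in WT A, B and C (log2 fold change -1.75 ± 0.25, SE, adjusted p = 0.0022), and a second probe set was also lower (log2 -2.80, adjusted p = 0.00274). The myosin light chain Myl9 fell by 1.49. Summed signals of the 13 measured markers were 8756 to 12629 in p53-/- samples and 25109 to 41120 in WT samples. The count was 3 without p53-/- C. The defining contractile genes of mature smooth muscle, Myh11 and Cnn1, did not pass the filter in these cells. Against MyoD-/- cells, Acta2 and Smtn, smoothelin, were lower in p53-/- cells (log2 -2.97, adjusted p = 0.00141, and log2 -1.90, adjusted p = 0.00203), as was Tagln, transgelin (log2 -2.44, adjusted p = 0.0206). Des and Tpm2 were higher in p53-/- than in MyoD-/- cells (log2 2.51, adjusted p = 0.000991, and log2 0.54, adjusted p = 0.0427).

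Markers of other cell types changed little. Of 9 tested fibroblast markers 1, Cd44, was called lower, a call lost without p53-/- A, p53-/- C, WT A or WT C (adjusted p up to 0.154) and in 5 other alternatives. Their summed signals over 16 measured markers were 44455 to 65436 in p53-/- samples and 46489 to 57574 in WT samples. Of 2 endothelial, 7 macrophage and leukocyte, 2 adipocyte and 9 Schwann and neural markers tested, 0 were called by limma, 0 had an unadjusted p under 0.05, and their summed signals overlapped between the genotypes. Pan-leukocyte Ptprc and the endothelial cadherin Cdh5 did not pass the filter, at 20.6 to 28.2 and 15.4 to 33.6 in p53-/- samples and 14.5 to 34.5 and 21.9 to 30.3 in WT samples. Endothelial Pecam1 and the Schwann cell factor Sox10 passed it, with overlapping groups, at 252 to 492 and 792 to 820 in p53-/- samples and 133 to 349 and 725 to 914 in WT samples. The part of other cell types in the results was not tested beyond these values.

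Secreted factors and their receptors moved both ways. Grem1, gremlin 1, an antagonist of bone morphogenetic proteins, read 4747, 1660 and 2024 in p53-/- A, B and C, against 120, 117 and 114 in WT A, B and C (log2 fold change 3.81 ± 0.39, SE, adjusted p = 0.000653). Igfbp6, which binds Igf2, read 3524, 3341 and 565 in p53-/- A, B and C, against 157, 99.5 and 267 in WT A, B and C (log2 fold change 3.09 ± 0.57, SE, adjusted p = 0.00744), with p53-/- C far below the other p53-/- samples. Igf2, the fetal growth factor that myoblasts make as they differentiate and a gene of chromosome 7, read 1745, 4777 and 893 in p53-/- A, B and C, against 20710, 22540 and 24860 in WT A, B and C (log2 fold change -3.48 ± 0.48, SE, adjusted p = 0.00208). None of the 3 genes overlapped between the genotypes. The receptors Igf2r (log2 -0.83) and Egfr (-1.30) and Mstn, myostatin, the inhibitor of muscle growth (-1.81), fell. In all, 3 of 43 were higher and 7 lower (6.98% and 16.3%, beside 6.06% and 6.52% of all genes). Grem1 was also called against MyoD-/- cells, where p53-/- cells were lower (log2 -2.22, adjusted p = 0.00424).

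In the extracellular matrix 2 of 48 genes were higher and 7 lower (4.17% and 14.6%, beside 6.06% and 6.52% of all genes). The basement membrane collagen genes Col4a1 and Col4a2, neighbours transcribed from a common promoter, both fell (log2 -1.76 and -1.51), as did Col18a1 (log2 -1.23), with 3 further probe sets of Col18a1 called lower. Col4a1 read 2812, 4283 and 2646 in p53-/- A, B and C, against 11130, 11380 and 10280 in WT A, B and C (log2 fold change -1.76 ± 0.24, SE, adjusted p = 0.00205), and Lama2, the laminin chain of muscle basement membrane, read 454, 584 and 408 in p53-/- A, B and C, against 1375, 1579 and 1116 in WT A, B and C (log2 fold change -1.37 ± 0.20, SE, adjusted p = 0.00274). The fibrillar collagens Col1a1 (log2 -0.12, 95% interval ± 0.46) and Col1a2 (-0.23 ± 0.29) were not called. Bgn, biglycan, a small leucine-rich proteoglycan, read 10470, 5512 and 1444 in p53-/- A, B and C, against 635, 561 and 762 in WT A, B and C (log2 fold change 2.64 ± 0.52, SE, adjusted p = 0.0108), with p53-/- A highest and p53-/- C lowest but no overlap. Of its 2 other probe sets 1 was called higher (log2 4.25, adjusted p = 0.00274) and the other was not (log2 0.82, adjusted p = 0.113).

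Imprinted genes, of which 1 parental copy is expressed, gave 6 lower and 1 higher calls of 15 (40% and 6.67%, beside 6.52% and 6.06% of all genes). The higher call, of the transporter gene Slc22a18, was lost when any 1 of the 6 samples was left out (adjusted p up to 0.136, without WT B). Mest, a paternally expressed gene on chromosome 6, read 2195, 1581 and 1585 in p53-/- A, B and C, against 20020, 14260 and 20820 in WT A, B and C (log2 fold change -3.31 ± 0.19, SE, adjusted p = 1.16e-05). Plagl1, a paternally expressed zinc finger gene, read 13680, 9874 and 9105 in p53-/- A, B and C, against 66830, 28200 and 90380 in WT A, B and C (log2 fold change -2.36 ± 0.35, SE, adjusted p = 0.00277), with WT samples spread over 28200 to 90380 but no overlap. Peg3, a chromosome 7 gene, fell by 2.14 at its brightest probe set, a call lost without WT A, WT B or WT C (adjusted p 0.0562 to 0.0766), while its 2 other probe sets were called lower at log2 -2.94 and -1.09. Of the 6 lower genes 5 are paternally expressed, among 9 tested, and 1, Igf2r, is maternally expressed, among 6 tested. The lower group includes Igf2, Peg3 and Ndn of chromosome 7, and Ndn overlapped between the genotypes, its call being lost without p53-/- A, p53-/- B, WT A or WT B (adjusted p up to 0.145). Against MyoD-/- cells 4 of the 15 were lower, among them Igf2 (log2 -1.64, adjusted p = 0.0481) and Igf2r (log2 -1.77, adjusted p = 4.12e-05), and 2 were higher in p53-/- cells, Mest (log2 3.05, adjusted p = 8.88e-06) and Peg3 (log2 3.20, adjusted p = 0.00273).

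Stress and immediate-early genes stayed near the background. Of 40 tested, 2 were higher and 2 lower (5% each, beside 6.06% and 6.52% of all genes), among them the metallothionein Mt2, which read 13220, 20010 and 18390 in p53-/- A, B and C, against 2024, 3205 and 7535 in WT A, B and C (log2 fold change 2.19 ± 0.45, SE, adjusted p = 0.0126), and the transcription factor Xbp1, of the unfolded protein response, which fell by 1.61. Of 18 interferon and antigen presentation genes limma called 0 higher and 3 lower (16.7% lower, beside 6.52% of all genes, with 3 each at an unadjusted p under 0.05). Ifi35, an interferon-induced gene, fell by 1.62 on the log2 scale. The call of the peptide transporter gene Tap2 at its brightest probe set was lost in all 6 omissions of a sample (adjusted p up to 0.126, without WT C). Its other probe set, on U74Av2, was called lower without overlap (log2 -1.91, limma adjusted p = 0.00277). The call of the GTPase gene Irgm1 was lost without p53-/- A, WT A or WT C (adjusted p up to 0.0772).

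**Figure D4:**
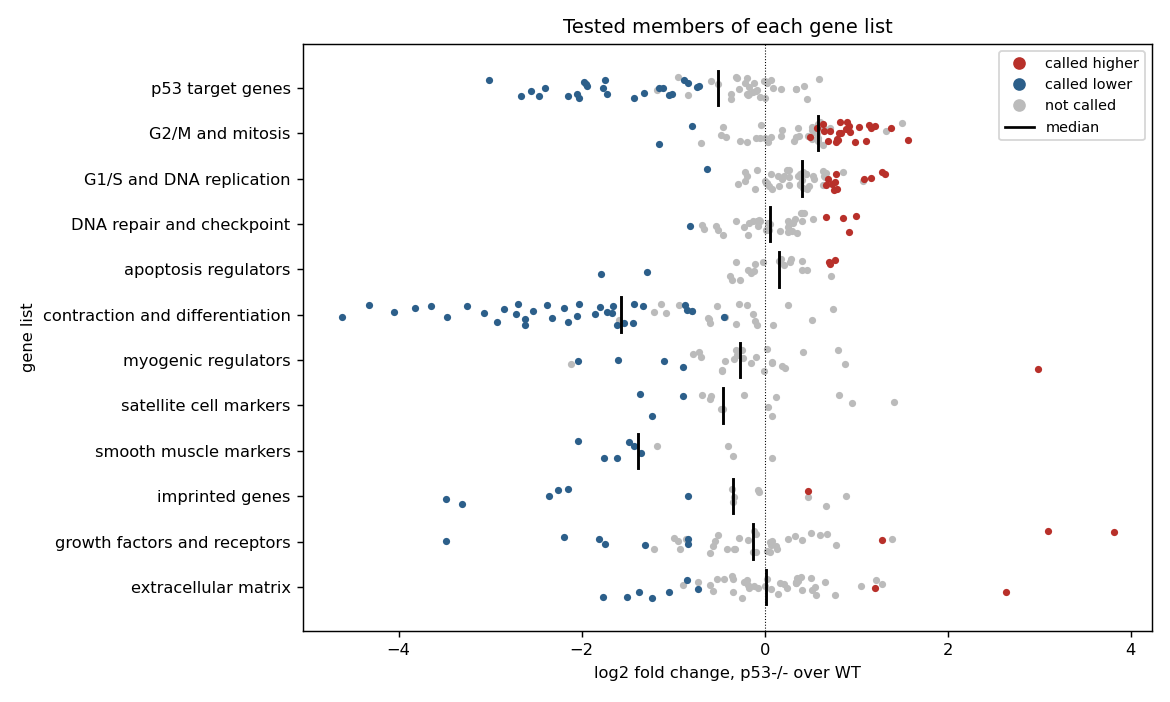
Log2 fold change, p53-/- over WT, of each tested member of 12 gene lists, with called genes in colour, genes not called in grey and the list's median as a black bar; vertical scatter within a list has no meaning. The medians lie at -0.51 for p53 target genes, 0.58 for G2/M and mitosis and -1.56 for contraction and differentiation.

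Outside the lists, large falls were found in genes with varied roles. Ly6e, a small membrane-anchored protein, read 900.5, 646 and 1792 in p53-/- A, B and C, against 31460, 35810 and 41280 in WT A, B and C (log2 fold change -5.05 ± 0.33, SE, adjusted p = 3.41e-05). Hoatz, a gene of cilia and flagella, read 83.4, 121 and 34 in p53-/- A, B and C, against 5681, 4817 and 4412 in WT A, B and C (log2 fold change -4.79 ± 0.24, SE, adjusted p = 7.37e-06), and Ano3, an anoctamin membrane protein, read 309.7, 482 and 494 in p53-/- A, B and C, against 14630, 10850 and 16600 in WT A, B and C (log2 fold change -4.72 ± 0.21, SE, adjusted p = 4.87e-06). In all 3 the p53-/- samples lay far below every WT sample, and all 3 were also lower in p53-/- than in MyoD-/- cells (log2 -2.19, -3.98 and -4.56). Gpx3, the secreted glutathione peroxidase, read 499, 846 and 514 in p53-/- A, B and C, against 11290, 3193 and 22820 in WT A, B and C (log2 fold change -3.82 ± 0.57, SE, adjusted p = 0.00284), was lower than in MyoD-/- cells as well (log2 -3.71, adjusted p = 0.00228), and had a second probe set that was not called (log2 0.07, adjusted p = 0.91). Ptger4, a prostaglandin E2 receptor (log2 -3.72), Fmo1, a flavin monooxygenase (-3.46), and Sgca, alpha-sarcoglycan of the muscle membrane (-3.63), fell as well. Ptger4, Fmo1 and Sgca were also lower in MyoD-/- than in WT cells (log2 -3.30, -3.66 and -3.87). They were not called between p53-/- and MyoD-/- cells.

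With 1 probe set standing for a gene and with the offset, the largest rises were Grem1, Apbb1ip, Arhgap6, Igfbp6 and Myf5. Most of them were shared with the other knockout, in a contrast that subtracts the same WT samples and so is not independent. Grem1, Apbb1ip, Igfbp6 and Myf5 were also called higher in MyoD-/- than in WT cells (log2 6.04, 3.98, 3.20 and 2.72). Arhgap6 was not (log2 2.61, limma adjusted p = 0.0707). Apart from Grem1, these genes were not called between p53-/- and MyoD-/- cells. Apbb1ip, an adaptor of Rap1 at integrins, read 3633, 2114 and 5831 in p53-/- A, B and C, against 209.9, 324 and 322 in WT A, B and C (log2 fold change 3.38 ± 0.32, SE, adjusted p = 0.000472), without overlap. Arhgap6 read 641, 6678 and 1536 in p53-/- A, B and C, against 69.3, 55 and 206 in WT A, B and C (log2 fold change 3.29 ± 0.81, SE, adjusted p = 0.0275). Its p53-/- samples were widely spread, with B highest, and its call was lost without p53-/- B, p53-/- C, WT A or WT B (adjusted p 0.0635 to 0.0871). The phosphatase Ptpn22 rose by 2.69 and the water channel Aqp1 by 2.34 on the log2 scale. The transcription factors Nfib and Bhlhe40 (log2 2.24 and 2.10), the sialyltransferase St3gal6 (2.24), the matrix protein gene Tinagl1 (2.31) and Slc19a1, the reduced folate carrier (2.09), rose too. Of these and of Ptpn22 and Aqp1, all but St3gal6 (log2 1.09) were also called higher in MyoD-/- than in WT cells. Between p53-/- and MyoD-/- cells limma called none of them. A second probe set of Slc19a1 was not called (log2 0.26, adjusted p = 0.389). The RIKEN gene 2810408I11Rik was called at log2 2.16, but among the 6 omissions of a sample the call held only without p53-/- B (adjusted p up to 0.133, without p53-/- A).

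By chromosome, the calls were uneven. On chromosome 7, 168 of 690 tested genes were lower and 6 were higher (24.3% and 0.87%, beside 3.24% to 7.95% lower on the 18 chromosomes other than 7 and 14), with a median log2 fold change of -0.36, while medians of those 18 ran from -0.052 to 0.077. The shift was present in each p53-/- sample, with median differences from the WT mean of -0.375 in A, -0.29 in B and -0.43 in C, against -0.018 to 0.036 for WT samples set against the other WT samples. It ran along the whole chromosome: in each of 10 successive blocks of 69 genes the median was negative, from -0.478 to -0.146, and 11 to 22 genes were lower. The median of p53-/- minus MyoD-/- on chromosome 7 was -0.215. Without p53-/- A or WT A, 110 genes of chromosome 7 were lower.

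Chromosome 14 showed the opposite sign, with 53 of 316 genes higher and 5 lower (16.8% and 1.58%) and a median of 0.21. Here, however, the WT samples were not alike. The p53-/- medians were 0.239 in A, 0.295 in B and 0.208 in C, while WT C stood 0.305 above the other WT samples and WT A and B stood at -0.118 and -0.207. MyoD-/- samples stood at 0.273 to 0.297 against the WT mean, and the median of p53-/- minus MyoD-/- was -0.04. The count of higher genes was 70 without WT C, and 27 without WT B, 33 without WT A, 33 without p53-/- C and 34 without p53-/- A. The cause of either shift was not tested. Around Trp53 itself, on chromosome 11, the 25 tested genes on each side gave 2 higher and 3 lower calls of 50 (4.0% and 6.0%), against 8.83% and 5.13% of the other 702 tested genes of that chromosome. With the genes of chromosomes 7 and 14 left out, 23 of 53 mitotic genes were higher and 28 of 44 contractile genes were lower (43.4% and 63.6%, beside 6.08% and 5.18% of all genes there).

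**Figure D5:**
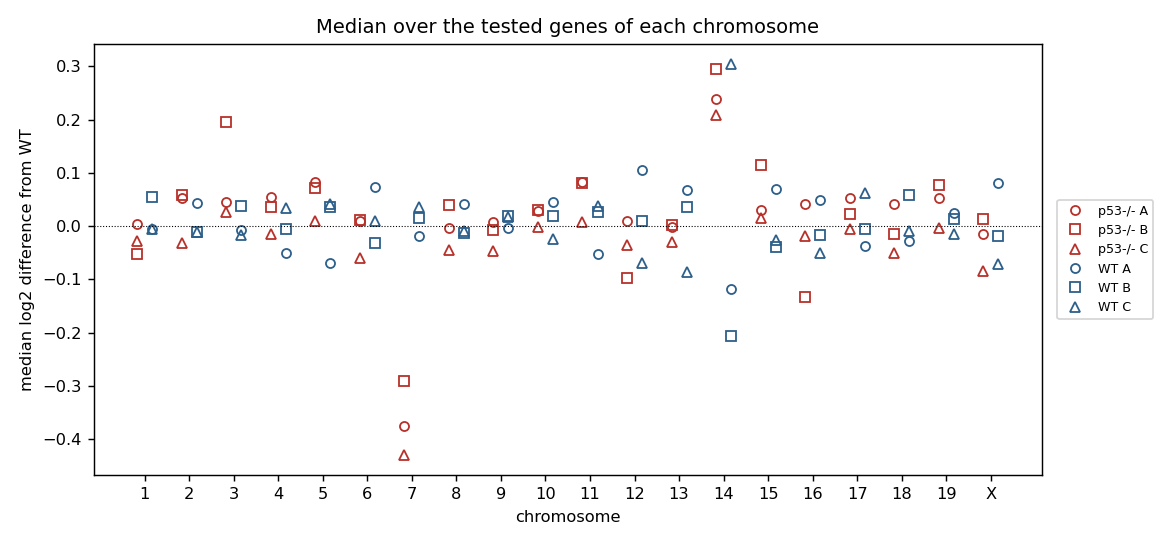
Median log2 difference over the tested genes of each chromosome, for p53-/- samples A, B and C against the mean of the WT samples (red, left of each tick) and for each WT sample against the mean of the other WT samples (blue, right). On chromosome 7 the p53-/- samples lie at -0.43 to -0.29, below all WT points, and on chromosome 14 WT C lies with the p53-/- samples.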

How the data were processed

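Biotin-labelled total RNA of cultured mouse myoblasts was hybridised to Affymetrix U74 chips. The deposited values are MAS5 signal intensities on a linear scale, 1 column per array, per the submitters' processing notes (MAS5 version and settings: not given in the sources used here). Precision is limited by the number of arrays. Symbols came from the platform annotation, and genes were placed on chromosomes with RefSeq tables.

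Control probe sets were dropped, leaving 24290, and signals were taken as log2(signal + offset), the offset being the 20th percentile of the chip type (67.19 on U74Av2, 106.35 on U74Cv2). Probe sets above the 40th percentile of an array on at least 3 of 9 arrays were tested. Limma 3.58.1 (R 4.3.3, statmod 1.5.0) was fitted per chip type to all 9 arrays, with a mean-variance trend. Calls had a Benjamini-Hochberg adjusted p under 0.05 over both chip types. Each gene is given by its tested probe set of highest mean percentile, and other probe sets are named where they matter. The fit was tested on simulated data.

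Per the record files, the p53-/- and WT arrays of a chip type were scanned on the same day in separate runs, WT before p53-/-, and on U74Cv2 the chip lots differed between the genotypes, so the scan run and genotype cannot be told apart. With chip lot as a random block, 874 probe sets were higher and 955 lower. On U74Cv2, where the lots differed between the genotypes, this block cannot separate lot from genotype. Over all tested probe sets the letters showed no pairing, since deviations of same-lettered samples correlated at -0.04 to 0.08. A letter effect within a smaller set of genes is not excluded by this. Among the 35 lower contractile genes, B was the highest sample in 31 for p53-/- and 27 for WT. C was the lowest in 29 and 30.

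The genes named were the 15 largest rises and 15 largest falls among called genes whose groups did not overlap, the 6 calls of lowest adjusted p, or fewer, from every list, and a short fixed set. The members and lists were chosen with earlier results of these data known, and any other gene named was chosen after its values were seen. Ccnb1 lacked a probe set of its own and was not analysed here.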

Additional observations from a re-analysis of the deposited data

How the results depend on the processing

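Higher probe sets ranged from 377 to 563 with 1 sample left out, beside 755 with all samples, and lower ones from 489 to 749, beside 843. Lower p53 targets ranged from 21 to 24, higher mitotic genes from 13 to 17, lower contractile genes from 23 to 36, and probe sets that differed between p53-/- and MyoD-/- cells from 1348 to 1935, beside 2045. The other alternatives gave 605 to 897 higher and 741 to 974 lower probe sets, 21 to 26 targets, 20 to 31 mitotic genes and 26 to 38 contractile genes. With the letter as a replicate block, 654 probe sets were higher and 741 lower, with 25 targets, 25 mitotic genes and 30 contractile genes. The correlations over all tested probe sets did not bear out the letter as a pairing. The counts without chromosomes 7 and 14, and those for replication, smooth muscle, imprinted and chromosome genes and the alternatives against MyoD-/- cells, were chosen after seeing the data. Of 107 genes named by rule 102 were called, which follows largely from the rule, since apart from the fixed set it took only called genes. Of these 102, 81 were called under every alternative run and 0 changed direction. The rule favours large changes and small adjusted p, so these counts do not describe all calls. Mki67, which was not called, ran from -0.12 to 0.11 on the log2 scale. The causes of these moves were not tested. Leaving out a sample changes the number and the identity of the samples together.

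With 3 samples a genotype, calls depend on dim or variable samples, and offsets compress changes of dim genes. Probe sets not passing the filter carry no result. Cross-hybridisation was not examined.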

Other observations

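Sex-linked transcripts split the samples of both genotypes. Xist, the RNA of the inactive X chromosome, read 4428, 25.7 and 21.1 in p53-/- A, B and C, against 111, 6495 and 39.8 in WT A, B and C. Eif2s3y, a Y-linked gene, read 24.1, 582 and 5.64 in p53-/- A, B and C, against 813, 16.9 and 1280 in WT A, B and C. Xist was thus high in p53-/- A and WT B and low in the other 4 samples, while Eif2s3y was high in p53-/- B, WT A and WT C. Sample p53-/- C was low for both transcripts. The 3 letters of a genotype were therefore not all taken from 1 RNA.

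Of 2545 genes with several tested probe sets, 513 had at least 1 called probe set, and 1, Rbfox2, an RNA-binding protein of muscle and nerve, had probe sets called in both directions (log2 1.86, adjusted p = 0.0172, and log2 -2.10, adjusted p = 0.00688, by limma). A further probe set of Rbfox2 was not called (log2 -0.82, adjusted p = 0.105). Which transcripts each of them reads was not examined.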
